A study of Mus musculus with 34 samples.

Results

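Brown preadipocytes, the precursor cells of brown fat, that had been immortalized with SV40T were followed by RNA-Seq through the first 2 days of adipogenesis. The cells carried a retroviral vector expressing wild-type (WT) histone H3.3, and served in the study as the control for a K36M mutant of that histone. According to the sample labels they came from interscapular brown fat of newborn C57BL/6J pups with a floxed glucocorticoid receptor gene, and the labels' protocol speaks of a retrovirus with or without Cre. The study's methods name WT mice and the histone vector instead, so the sources differ on the origin of the cells. Confluent cells were taken at day 0 (D0), before induction, and at day 2 (D2), after 2 days in insulin at 0.02 μM, T3 at 1 nM, IBMX at 0.5 mM, dexamethasone at 2 μg/ml, and indomethacin at 0.125 mM. Each day is 1 library of 1 cell pool, so no difference from D0 to D2 has a replicate check, no p-value is given, and D2 cells had differentiated for 2 days and were also still in the inducing medium. A later library at day 7 (D7) of the same cells, and D0 and D2 libraries of preadipocytes that carried a control (Ctrl) shRNA from a lentiviral vector and received the same induction, are set beside the pair. After D2 the medium held insulin and T3 only, so the D7 cells were no longer under the full cocktail. Values are RPKM, the reads per kilobase of transcript scaled to the mapped reads of the library. Of 23109 genes, 12155 had an RPKM of at least 1 at D0 or D2 and form the set described here.

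Adipogenesis is the programme by which a fibroblast-like precursor becomes a lipid-storing fat cell. The inducing medium acts through several receptors at once. Insulin activates the insulin receptor, T3 is thyroid hormone, dexamethasone is a ligand of the glucocorticoid receptor, IBMX blocks phosphodiesterases and so raises cAMP, and indomethacin inhibits cyclooxygenases and binds PPARγ. C/EBPβ and C/EBPδ are known to act early and to switch on PPARγ and C/EBPα, which then maintain the genes of fatty acid uptake, triglyceride storage, and insulin response. Brown fat cells are known in addition for dense mitochondria and for *Ucp1*, the uncoupling protein that turns respiration into heat.

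The D0 and D2 libraries held 21388064 and 19103785 mapped reads, as recovered from the step size of the deposited RPKM values, and 3 reads of a 1-kb transcript correspond to 0.140 and 0.157 RPKM. The median log2 ratio of D2 over D0 was -0.011 over the 12096 kept genes above 0 on both days, so the libraries were centred alike. Markers of other cell types were mostly at or below 1 RPKM. All 6 endothelial markers stayed below 1 RPKM, as did all but *Cd14* of the 6 measured macrophage and leukocyte markers and all but *Acta1* of the 8 skeletal muscle markers. Both of these genes were over 2-fold lower at D2, *Acta1* with 10.2 RPKM at D0 and 0.986 at D2. The summed level of the 6 macrophage and leukocyte markers was 3.84 RPKM at D0 and 0.455 at D2. Which cells the chemokine and interferon-stimulated transcripts given later came from was not tested. Of 7 epithelial and neural markers, 2 reached 1 RPKM and both fell, with a summed level of the list of 15.6 RPKM at D0 and 3.87 at D2. *Nr3c1*, which encodes the glucocorticoid receptor, had 30.9 RPKM at D0, with 17.7 and 23.3 on the later days.

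From D0 to D2, 1140 of the 12155 genes (9.38%) were up-regulated over 2-fold, 2103 (17.3%) were down-regulated over 2-fold, and 8912 lay within 2-fold. The down-regulated genes also included the larger differences, with 977 genes past 4-fold and 277 past 16-fold, against 338 and 98 up-regulated genes. The median down-regulated gene had 8.24 RPKM at D0 and 1.87 at D2, and the median up-regulated gene had 4.55 and 15.6. Protein-coding genes made up 1007 of the up-regulated and 1909 of the down-regulated genes. Sampling of reads alone left the ratio above 1 in 1084 of the 1140 up-regulated genes and below 1 in 2055 of the 2103 down-regulated genes, by the 95% Clopper-Pearson interval of the reads. These intervals cover counting error only and say nothing of differences between cultures.

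The most abundant transcripts changed over with the programme. *Bgn*, which encodes the matrix proteoglycan biglycan, ranked first at D0 with 1446 RPKM and was at 292 RPKM at D2. The chemokine gene *Ccl2* was the third at D0 with 1216 RPKM, behind the ferritin gene *Fth1* with 1276 RPKM. At D2 the first 2 places were held by *Fabp4*, the fatty acid carrier of adipocytes, with 3249 RPKM and *Lpl*, the lipase that releases fatty acids from lipoproteins, with 2145 RPKM. The fatty acid desaturase gene *Scd1* was the fourth with 1229 RPKM, against 25.5 at D0.

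The induced genes with the largest change, ranked by the near limit of the counting interval where the higher day had an RPKM of 10 or more, were led by *Zbtb16*, a zinc finger repressor known as a glucocorticoid-induced gene. *Zbtb16* (chr9:48462416-48644050, minus strand, NCBIM37) went from 0.0640 to 37.0 RPKM, or from 7 to 3615 reads, a log2 ratio of 9.18 with limits of 8.13 and 10.49. It was followed by *Sptlc3*, a subunit of the enzyme that starts sphingolipid synthesis, with 0.0508 RPKM at D0 and 30.5 at D2. The rest of the 12 were mainly genes of lipid storage. *Cidec* (chr6:113374628-113385754, minus strand, NCBIM37), which fuses lipid droplets, had 0.604 RPKM at D0 and 138 at D2. *Cd36*, a fatty acid transporter, had 0.151 and 36.5 RPKM, and *Fabp4* (chr3:10204347-10208576, minus strand, NCBIM37) had 37.6 and 3249, an 86.5-fold rise. The lipolysis genes *G0s2* and *Lipe*, the phosphodiesterase regulator *Abhd15*, and *Fam13a*, *Igfbp5*, *Rgs2*, and *Arxes1* completed the list with ratios between 60.8-fold and 142-fold. *Arxes1* has the near-identical neighbour *Arxes2*, so the split of reads between them is uncertain.

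The repressed genes with the largest change were interferon-stimulated genes and chemokines. *Ifit1* (chr19:34715361-34724499, plus strand, NCBIM37), whose product binds foreign RNA, fell from 174 RPKM at D0 to 0.933 at D2, or from 9798 to 47 reads, a log2 ratio of -7.54 with limits of -7.99 and -7.13. Of the other 11, *Ifit3*, *Ifit3b*, *Oasl2*, *Rsad2*, and *Gbp3* are also interferon-stimulated, and *Cxcl10*, *Ccl2*, and *Ccl7* encode chemokines. *Cxcl10*, also known as an interferon-stimulated gene, had 221 RPKM at D0 and 1.43 at D2. *Ccl2* fell from 1216 to 12.8 RPKM, and its neighbour *Ccl7* fell from 811 to 9.63 RPKM. The list also held *Ccn2*, which encodes a connective tissue growth factor and fell from 106 to 1.11 RPKM, *Adm*, which encodes the vasodilator adrenomedullin and fell from 82.6 to 0.493 RPKM, and *Siglecg*, which encodes a sialic acid receptor and fell from 13.6 to 0.0421 RPKM.

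**Figure D1:**
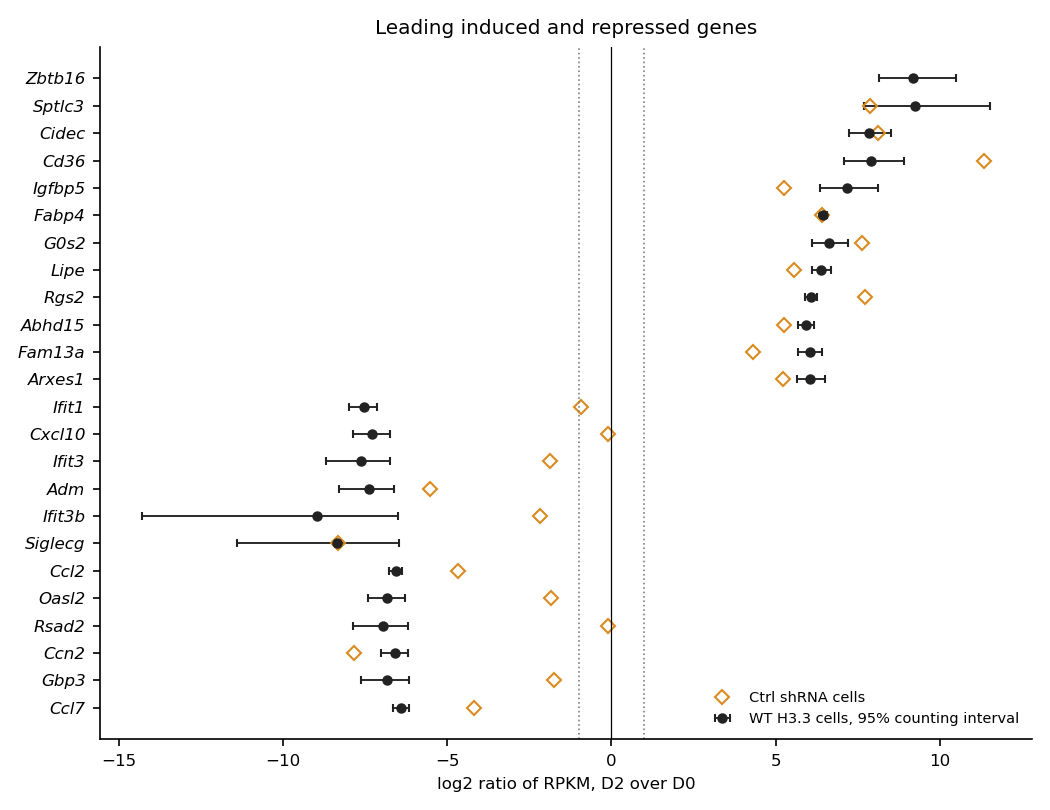
The 12 induced and 12 repressed genes with the largest near limit of the counting interval, as the log2 ratio of RPKM at D2 over D0. Filled circles with bars are the WT H3.3 cells with 95% counting intervals and open diamonds the Ctrl shRNA cells, where *Zbtb16* has no diamond because it was at 0 at D0, and dotted lines mark 2-fold. The other 11 induced genes were past 2-fold in both kinds of cells, while *Ifit1*, *Rsad2*, and *Cxcl10* were within 2-fold in the Ctrl shRNA cells.

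To name the programmes, 23 lists of genes of known function were counted, each read against the 9.38% and 17.3% of all kept genes. Some lists share members, which are counted in each. Examples are *Zbtb16* in the adipogenic factor and glucocorticoid-responsive lists, and *Pde3b* in the cAMP-responsive and insulin signalling lists. The lists of adipogenic, lipid, cholesterol, mitochondrial, thermogenic, hormone-responsive, adipokine, and insulin signalling genes each had between 40% and 78.6% of their kept members up-regulated. Lists of actomyosin, matrix protease, inflammatory, and interferon-stimulated genes had between 71.4% and 96.0% of their members down-regulated.

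**Figure D2:**
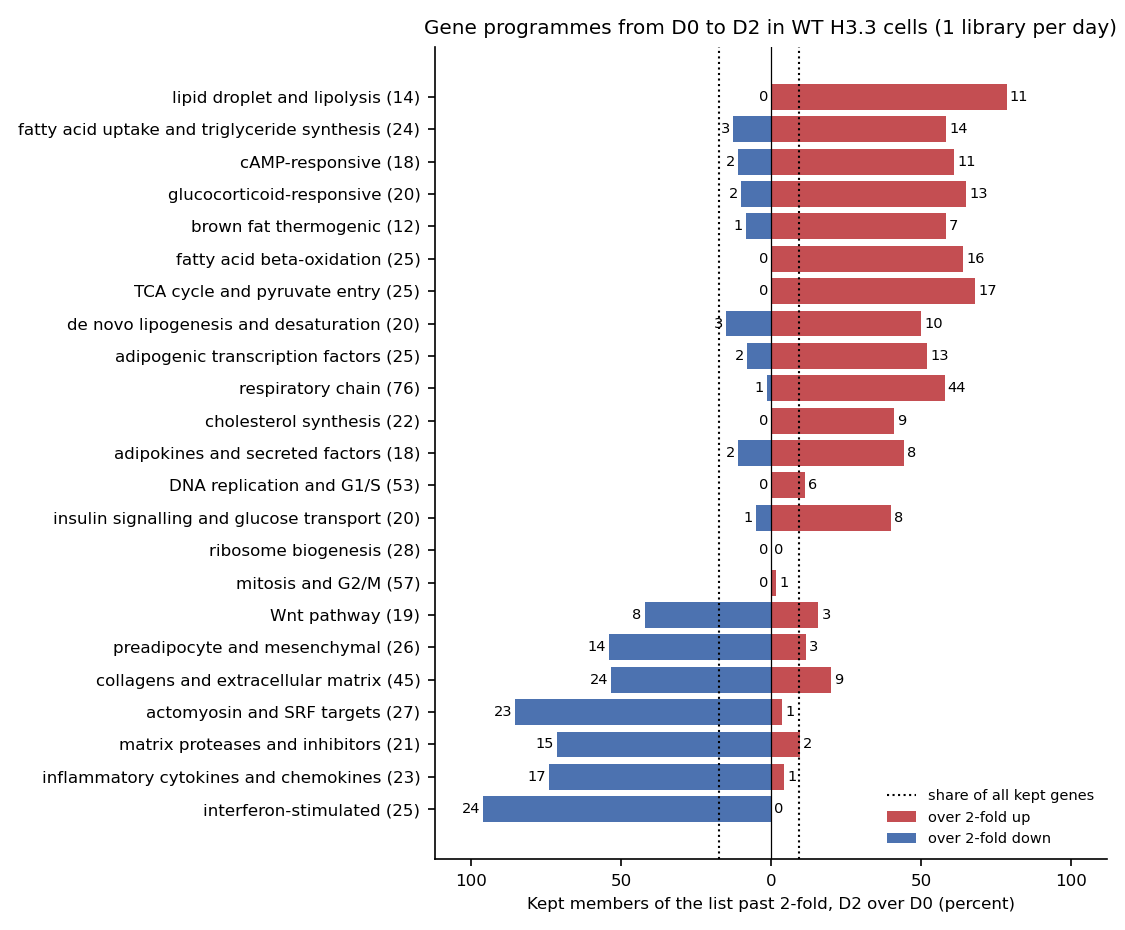
Share of the kept members of each list that were over 2-fold up (right, red) or over 2-fold down (left, blue) from D0 to D2 in WT H3.3 cells, with the number of members at the bar ends, the number kept in parentheses, and dotted lines at the shares of all kept genes, 9.38% and 17.3%. Lists are ordered by their median log2 ratio, and lipid droplet genes stand at one end with 11 of 14 up and interferon-stimulated genes at the other with 24 of 25 down.

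Among adipogenic transcription factors, 13 of 25 kept genes rose and 2 fell, with a median log2 ratio of 1.05. *Cebpa* went from 6.64 RPKM at D0 to 208 at D2, a 31.3-fold rise (log2 limits 4.82 and 5.12), and was at 232 at D7. *Pparg* went from 13.4 to 66.7 RPKM, a 4.99-fold rise (log2 limits 2.18 and 2.46), and was at 101 at D7. Both genes therefore had most of their D7 level at D2. The early factor genes *Cebpb*, *Cebpd*, and *Klf4* were not up-regulated over 2-fold at D2. Levels between D0 and D2 were not measured, so a passing rise before D2 could not be seen. *Cebpb* had 137 RPKM at D0 and 196 at D2, which is within 2-fold, and *Cebpd* fell from 42.8 to 14.4 RPKM. *Klf4*, which is known to promote *Cebpb* expression early in adipogenesis, fell from 54.3 to 23 RPKM.

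Other members that rose bear on lipid and energy metabolism. *Srebf1*, the regulator of fatty acid synthesis, rose from 14.1 to 73.2 RPKM, and *Ppargc1b*, a coactivator of mitochondrial genes, from 0.844 to 9.13 RPKM. *Mlxipl*, which encodes the glucose-responsive factor ChREBP, reached 1.13 RPKM at D2 from 0.141 at D0 and stood at 34.1 at D7. *Ebf2*, a factor of brown preadipocyte identity, rose from 6.82 to 25.4 RPKM, whereas *Ebf1*, with 22.3 and 17.4 RPKM, stayed within 2-fold.

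The lipid droplet and lipolysis list had 11 of 14 kept members up, none down, and a median log2 ratio of 3.47. *Plin1*, the perilipin that coats the droplets of mature adipocytes, rose from 0.503 to 36.8 RPKM and stood at 144 at D7. *Plin2*, the perilipin of most cell types, was already at 99.7 RPKM at D0 and rose to 294. *Plin3* had 26.98 and 13.8 RPKM and *Plin4* 22.3 and 43.0, both within 2-fold. The lipases that degrade triglyceride stepwise were all induced: *Pnpla2*, which encodes ATGL, from 5.61 to 141 RPKM, *Lipe*, hormone-sensitive lipase, from 1.73 to 145, and *Mgll*, monoglyceride lipase, from 0.779 to 38.0. The ATGL activator gene *Abhd5* rose from 16.6 to 137 RPKM and the ATGL inhibitor gene *G0s2* from 1.66 to 165. *Fitm2*, which acts in droplet formation at the endoplasmic reticulum, rose from 11.0 to 165 RPKM and stood at 74.3 at D7.

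In the list of fatty acid uptake and triglyceride synthesis, 14 of 24 kept genes rose and 3 fell. *Lpl* was the only gene of the list above 100 RPKM at D0, with 204, and rose to 2145. *Acsl1*, the main acyl-CoA synthetase of fat cells, rose from 11.6 to 402 RPKM, whereas *Acsl5* fell from 14.9 to 7.31 and *Acsl3*, with 5.98 and 6.22, stayed within 2-fold. Genes for each step from glycerol 3-phosphate to triglyceride rose. These were *Gpat3* (8.89 to 144 RPKM), *Agpat2* (14.4 to 116), *Lpin1* (5.89 to 95.9), *Dgat1* (11.0 to 115), and *Dgat2* (30.3 to 207). *Fabp5* rose from 14.9 to 482 RPKM and stood at 84.0 at D7, and *Fabp3* fell from 3.80 to 0.981.

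In the list of de novo lipogenesis and desaturation, 10 of 20 genes rose and 3 fell. *Scd1*, the desaturase that makes oleate, rose 48.2-fold. *Scd3* rose from 0.0674 to 2.75 RPKM and *Scd2* from 46.8 to 151, though the Scd genes are close copies and reads may be shared between them. The log2 ratio of *Scd1* was 5.59 in WT H3.3 cells but 2.31 in Ctrl shRNA cells, and that of *Scd3* was 5.35 but 0.60. *Fasn*, fatty acid synthase, rose from 20.1 to 63.2 RPKM and stood at 519 at D7, and *Acaca*, acetyl-CoA carboxylase, rose from 4.18 to 14.8 with 34.8 at D7. *Acly*, ATP citrate lyase, had 31.9 RPKM at D0 and 62.4 at D2, within 2-fold, and 308 at D7. NADPH-generating enzymes were among the genes that rose, with *G6pdx* from 40.6 to 113 RPKM, *Me1* from 21.9 to 53.5, and *Pgd* from 35.4 to 83.0. The 3 genes that fell all belong to the Fads desaturase family, of which *Fads1* and *Fads2* make polyunsaturated fatty acids. *Fads1* fell from 61.4 to 28.8 RPKM, *Fads2* from 33.3 to 10.1, and *Fads3* from 91.5 to 26.98.

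Cholesterol synthesis genes were higher as a group, with 9 of 22 up, none down, and a median log2 ratio of 0.83. *Lss*, lanosterol synthase, rose from 8.2 to 37.9 RPKM, and *Insig1*, a sterol-dependent brake on the pathway, from 6.59 to 25.6. In the Ctrl shRNA cells the median of this list had the opposite sign, with 1 member over 2-fold up, 6 over 2-fold down, and a value of -0.61.

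Mitochondrial genes rose broadly and by modest ratios. Of the TCA cycle and pyruvate entry genes, 17 of 25 rose and none fell. *Pcx*, pyruvate carboxylase, stood apart with a rise from 14 to 342 RPKM and 479.6 at D7. The subunits of the mitochondrial pyruvate carrier also rose, *Mpc1* from 1.49 to 11.7 RPKM and *Mpc2* from 18.0 to 102. Citrate synthase, *Cs*, rose from 67.2 to 154 RPKM. For fatty acid β-oxidation, 16 of 25 genes rose and none fell, among them *Acadl* (19.4 to 88.8 RPKM) and *Hadh* (20.2 to 96.1). *Cpt1a*, the gate for entry of long-chain fatty acids, had 13.4 and 14.03 RPKM, within 2-fold.

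The respiratory chain list held 76 kept genes, of which 44 rose and 1 fell. Its median log2 ratio, 1.05, lay next to the 2-fold limit, so the count depends on small differences between genes. By complex, the genes over 2-fold up were 18 of 37 for complex I, 2 of 4 for complex II, 7 of 9 for complex III, 8 of 11 for complex IV, and 8 of 14 for ATP synthase. Their medians lay between 0.92 and 1.44 on the log2 scale. *Atp5b*, the catalytic subunit of ATP synthase, rose from 375 to 765 RPKM and was the seventh most abundant transcript at D2. The 1 gene that fell was *Cox6a2*, the heart and muscle form of a complex IV subunit, from 10.0 to 1.91 RPKM.

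The defining thermogenic markers of brown fat were at or near 0. *Ucp1* had no reads at D0, 5 reads at D2 (0.159 RPKM), and 0.0457 RPKM at D7, and *Cidea*, another marker of brown fat, was listed at 0 on all 3 days. Of 22 thermogenic genes, 12 reached 1 RPKM at D0 or D2, of which 7 rose and 1 fell. The potassium channel gene *Kcnk3* rose from 0.172 to 4.67 RPKM and stood at 17.0 at D7. *Elovl3*, a brown fat elongase, rose from 1.39 to 7.38 RPKM, and *Ppargc1a*, the coactivator PGC-1α, from 0.210 to 1.08. The log2 ratio of *Elovl3* was 2.41 in WT H3.3 cells but 7.34 in Ctrl shRNA cells. *Adrb3*, the adrenergic receptor of fat cells, had 0.234 RPKM at D0, 0.262 at D2, and 11.6 at D7.

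Genes known to respond to the hormones of the medium formed a further induced group. In the glucocorticoid-responsive list, 13 of 20 genes rose and 2 fell. *Fkbp5*, a chaperone of the receptor, rose from 11.8 to 56.8 RPKM and stood at 107 at D7. *Tsc22d3*, which encodes the leucine zipper protein GILZ, rose from 19.0 to 66.6 RPKM, and *Per1*, a clock gene, from 7.39 to 22.2. *Glul*, glutamine synthetase, rose from 11.2 to 151 RPKM, and *Rgcc*, a cell cycle regulator, from 2.00 to 38.8. *Angptl4*, an inhibitor of lipoprotein lipase, had 21.0 RPKM at D0, 198 at D2, and 24 at D7. *Sgk1*, a kinase, fell from 27.6 to 7.46 RPKM, and *Dusp1*, a phosphatase, had 18.2 and 15.7, within 2-fold.

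In the cAMP-responsive list, 11 of 18 genes rose and 2 fell. *Rgs2*, a brake on G protein signals, rose from 4.26 to 285 RPKM, with 79.4 at D7. Of 5 phosphodiesterases in the list, 4 rose, including *Pde4d* from 4.49 to 53.2 RPKM and *Pde3b* from 4.71 to 107, and *Pde4a* fell from 9.21 to 2.14. The orphan nuclear receptor gene *Nr4a1* had 4.61 RPKM at D0, 65.6 at D2, and 6.19 at D7. IBMX, dexamethasone, and indomethacin were all in the medium at D2 and in neither of the other samples, so they cannot be told apart here. *Pde4d* had the same course, with 4.80 RPKM at D7, and so had *Crem*, a cAMP response repressor, with 1.78, 7.30, and 2.56 RPKM. *Fos*, an early response gene, had 2.73 and 2.33 RPKM, within 2-fold. The full cAMP response element, TGACGTCA, was found in 1 of 13 promoters of this list, against 3.38% of those of kept genes and 1.88% of all promoters, counting 1 window of 250 bases before to 50 bases after each start in RefSeq (GRCm38.p6) and both strands.

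**Figure D3:**
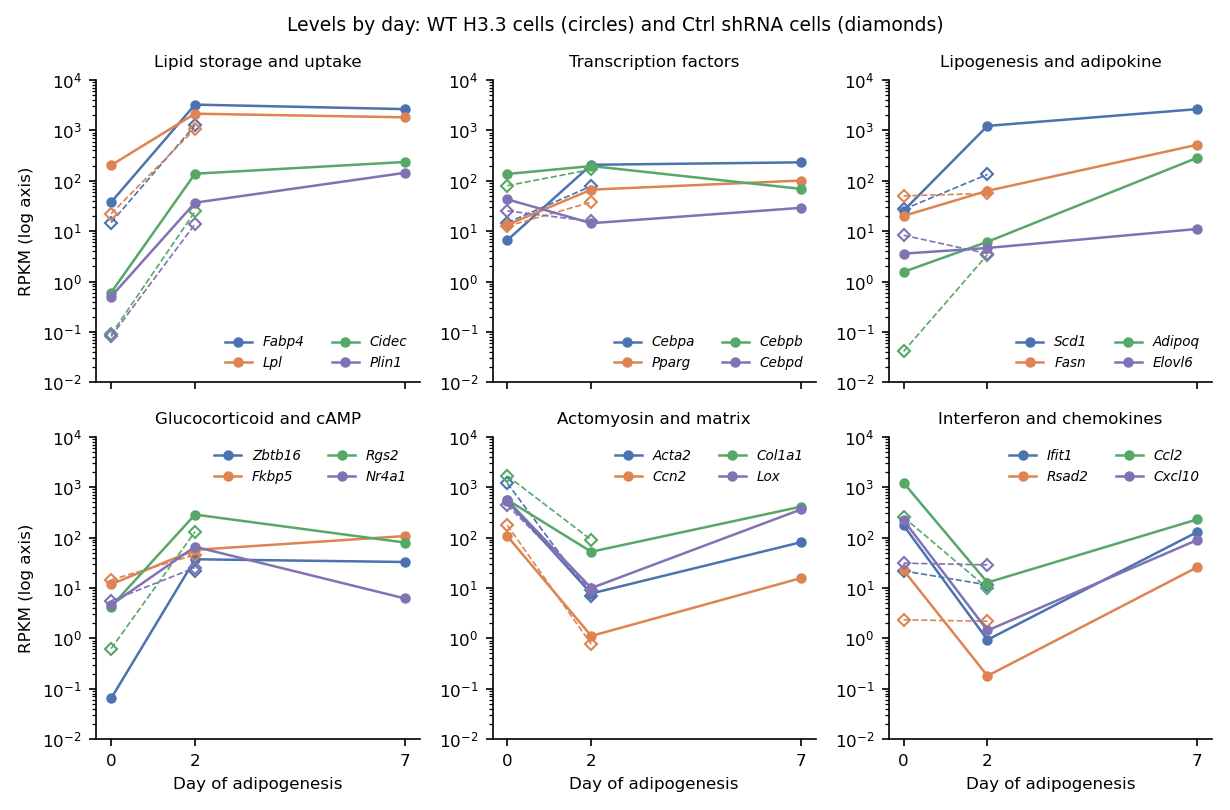
RPKM of 24 named genes on a log axis against day of adipogenesis, with 1 library per point, filled circles and solid lines for WT H3.3 cells at D0, D2, and D7, and open diamonds and dashed lines for Ctrl shRNA cells at D0 and D2 (points at 0 are left out). In WT H3.3 cells *Fabp4* and *Lpl* rose to D2 and were near that level at D7, *Fasn* and *Adipoq* were highest at D7, *Nr4a1* and *Rgs2* were highest at D2, and the actomyosin, matrix, interferon, and chemokine genes plotted were lowest at D2.

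Insulin signalling genes rose in 8 of 20 cases and fell in 1. *Irs2*, an adaptor of the receptor, rose from 7.83 to 102 RPKM, and the receptor gene *Insr* from 10.9 to 23.9. *Cav1*, the coat protein of caveolae, rose from 107 to 432 RPKM. *Grb14*, an inhibitor of the receptor, fell from 8.12 to 0.587 RPKM. *Slc2a4*, which encodes the insulin-responsive glucose transporter GLUT4, remained below 1 RPKM on both days with 0.0331 and 0.816, and had 41.6 at D7.

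Secreted factors of fat cells rose more often than they fell. Of 18 kept genes, 8 rose (9.38% of all genes did) and 2 fell (17.3% did). *Adipoq*, which encodes adiponectin, rose from 1.56 to 6.16 RPKM at D2 and stood at 287 at D7. *Retn*, which encodes resistin, had 0.0803 RPKM at D0, 13.2 at D2, and 79.3 at D7, and *Agt*, angiotensinogen, had 41.7, 177, and 199. *Cfd*, which encodes adipsin, fell from 3.70 to 1.64 RPKM before it stood at 207 at D7, and *Cxcl12*, a stromal chemokine, had 284, 41.6, and 463 RPKM. Adiponectin and adipsin transcripts were thus low at D2 in WT H3.3 cells, when *Fabp4* and *Lpl* were near their D7 levels of 2644 and 1817 RPKM. The log2 ratio of *Adipoq* was 1.99 in WT H3.3 cells but 6.38 in Ctrl shRNA cells, while *Retn* had 7.36 and 3.67.

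Most genes of proliferation stayed within 2-fold. DNA replication and G1/S genes had 6 of 53 up (9.38% of all genes were), none down, and a median log2 ratio of 0.40. *Rrm2*, a subunit of ribonucleotide reductase, rose from 39.5 to 90.2 RPKM, and *E2f2* from 0.562 to 2.59. All 6 genes of the MCM helicase were within 2-fold, *Mcm5* with 24.6 and 39.2 RPKM. Among mitosis and G2/M genes, 1 of 57 rose, *Spc25* with 10.6 and 21.5 RPKM, and none fell. *Mki67*, the proliferation marker, had 15.1 RPKM at D0 and 18.3 at D2, and *Ccnb1*, cyclin B1, 10.4 and 8.54, both within 2-fold. None of 28 ribosome biogenesis genes passed 2-fold in either direction, for example *Ncl*, nucleolin, with 189 and 183 RPKM. In the same windows, the CHR element TTTGAA was found in 33 of 47 promoters of the mitosis list against 11.6% of those of kept genes (18.1% of all promoters). An E2F element (TTTCCCGC, TTTGGCGC, TTCCCGCC, or TTGGCGCC, of which the first and the third can overlap) was found in 20 of 44 promoters of the replication list against 7.40% (3.87%). The CCAAT box was found in 35 of 47 and 27 of 44 against 39.4% (37.9%). Because the lists were drawn up from known cell cycle genes, these shares describe their membership and are no result about D0 to D2.

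Genes of the actomyosin cytoskeleton and known targets of serum response factor (SRF), counted in a joint list, fell as a group. SRF is known to drive these genes in cells under tension. Of 27 kept genes, 23 fell (17.3% of all genes did), 1 rose, and the median log2 ratio was -2.38. *Acta2* (chr19:34315580-34329826, minus strand, NCBIM37), which encodes smooth muscle actin, fell from 529 to 7.73 RPKM, a 68.4-fold decrease, and stood at 80.7 at D7. *Myl9*, a myosin light chain, fell from 102 to 1.21 RPKM, *Tagln*, transgelin, from 136 to 4.32, and *Ankrd1*, an SRF and YAP target, from 65.9 to 0.741. The general cytoskeletal genes fell less, *Actb* from 1179 to 397 RPKM and *Vcl*, vinculin, from 86.1 to 42.1. *Srf* itself fell from 26.8 to 11.7 RPKM. *Actn4* and *Myh10* were within 2-fold, with 79.8 and 67.1 RPKM and 37.9 and 20.9 RPKM. The 1 gene that rose was *Mylk*, myosin light chain kinase, from 0.527 to 2.76 RPKM.

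The CArG box, the site that SRF is known to bind, was searched after these values were seen, on both strands of the same windows. It was found in 6 of 23 promoters of the list, against 1.33% of those of kept genes and 1.57% of all promoters. Because the list was drawn up to hold known SRF targets, this share describes its membership and is no result about the decrease. Promoter stretches of 3 members are shown because their genes fell together, each 5′ to 3′ on the gene's strand, from before the start, with CArG boxes in capitals (RefSeq, GRCm38.p6).
Myl9: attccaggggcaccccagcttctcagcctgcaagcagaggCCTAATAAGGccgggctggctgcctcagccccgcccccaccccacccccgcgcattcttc
Vcl: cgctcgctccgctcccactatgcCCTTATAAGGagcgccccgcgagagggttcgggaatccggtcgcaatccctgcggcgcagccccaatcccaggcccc
Srf: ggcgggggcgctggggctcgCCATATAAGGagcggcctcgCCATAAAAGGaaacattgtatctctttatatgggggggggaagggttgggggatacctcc
The stretch of *Myl9* lies at chr2:156775263-156775362 (plus strand), that of *Vcl* at chr14:20929148-20929247 (plus strand), and that of *Srf* at chr17:46556165-46556264 (minus strand). The nearest box began 161, 227, and 62 bases before the start in *Myl9*, *Vcl*, and *Srf*. A match is a description of letters, and binding was not measured.

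Extracellular matrix genes moved in both directions. Of 45 kept collagen and matrix genes, 24 fell and 9 rose. Genes of the fibrous stroma fell. *Col1a1* and *Col1a2*, the chains of type I collagen, fell from 560.2 to 52.1 RPKM and from 143 to 11.1, and *Col3a1* from 142 to 34.8. *Lox*, the enzyme that cross-links collagen and elastin, had the largest decrease of the list, from 548 to 9.92 RPKM, and stood at 361 at D7. *Thbs1*, thrombospondin 1, fell from 366 to 11.3 RPKM, and *Fn1*, fibronectin, from 821 to 214.

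Genes of the basement membrane, grouped after the values were seen, went the other way or stayed. Of 10 such genes, 5 rose and none fell, whereas 4 of 6 fibrillar collagen genes, 5 of 5 elastic fibre genes, and 3 of 5 lysyl oxidase genes fell. *Col15a1*, a basement membrane zone collagen, rose from 8.88 to 442 RPKM with 111 at D7. The chains of collagen IV rose together, *Col4a1* from 76.6 to 458 RPKM and *Col4a2* from 61.7 to 304, and so did 2 laminin chains, *Lamb1* from 90.0 to 224 and *Lamc1* from 81.6 to 229, while *Lama4* had 9.001 and 9.26 RPKM, within 2-fold. *Nid1*, nidogen, had 166 and 289 RPKM, within 2-fold. The 3 collagen VI genes also rose, *Col6a1* from 335 to 722 RPKM and *Col6a2* from 248 to 719.5, which made them the tenth and the eleventh most abundant transcripts at D2. In Ctrl shRNA cells none of the 3 was over 2-fold up, with 337 and 382 RPKM for *Col6a1* and 215 and 361 for *Col6a2*, and *Col6a3*, which rose from 105 to 216 RPKM in WT H3.3 cells, fell from 139 to 58.6 there.

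**Figure D4:**
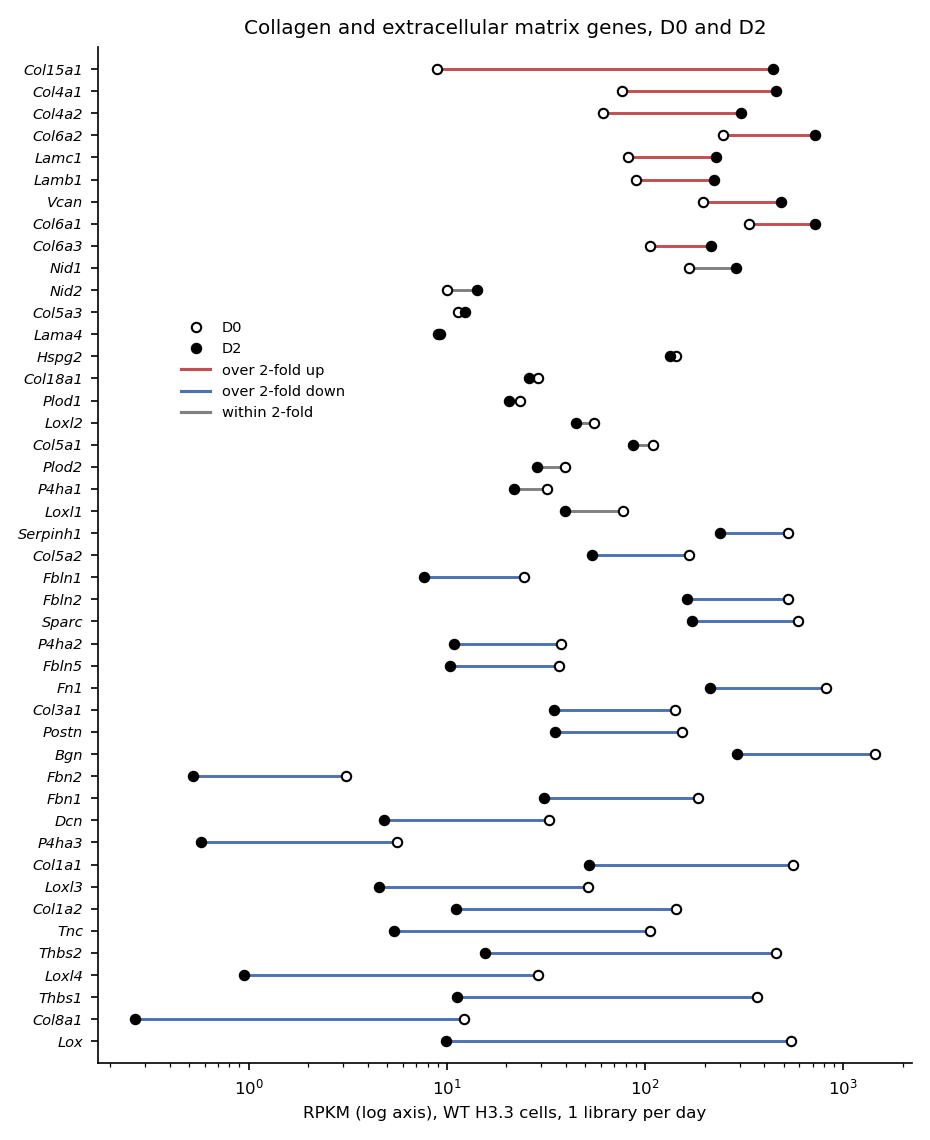
RPKM at D0 (open circles) and D2 (filled circles) of the 45 kept collagen and matrix genes in WT H3.3 cells on a log axis, 1 library per day, ordered by the ratio, with red lines for genes over 2-fold up, blue for over 2-fold down, and grey for within 2-fold. Collagens IV, VI, and XV, *Lamb1*, and *Lamc1* rose, while *Lox*, thrombospondin, and type I collagen genes fell.

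Most genes of matrix proteases and their inhibitors were lower at D2. Of 21 kept genes, 15 fell and 2 rose, with a median log2 ratio of -2.50. *Timp3*, a protease inhibitor, fell from 189 to 3.87 RPKM and *Adamts5*, an aggrecanase, from 38.6 to 1.27. *Mmp14*, a membrane protease, fell from 174 to 25.7 RPKM and stood at 123 at D7. The genes that rose were *Adamts9* (1.12 to 6.14 RPKM) and *Adamts4* (3.03 to 7.34).

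Preadipocyte and mesenchymal genes fell in 14 of 26 cases (17.3% of all genes did) and rose in 3 (9.38% did). The median log2 ratio was -1.16, and the largest rise of the list was a log2 ratio of 1.83. *Dlk1*, the classical preadipocyte factor that inhibits adipogenesis, fell from 27.6 to 6.09 RPKM and stood at 26.0 at D7. *Pdgfra*, the receptor that marks fat progenitors, fell from 29.5 to 5.68 RPKM, with 48.7 at D7, and *Pdgfrb* fell from 70.7 to 11.6. *Ly6a*, which encodes the progenitor antigen Sca-1, fell from 197 to 31.3 RPKM, with 169 at D7. *Dlk1*, *Pdgfra*, and *Ly6a* were thus lower at D2 than at either D0 or D7. Values of *Cd34* and *Thy1*, also preadipocyte markers, are not reported here. *Twist2* and *Nr2f2*, mesenchymal transcription factors, had 51.6 and 69.2 RPKM and 14.8 and 11.9 RPKM, within 2-fold. In bulk RNA, fewer cells of a type and less RNA per cell cannot be told apart.

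Wnt signalling is known to hold preadipocytes undifferentiated. Of 33 listed genes, 19 reached 1 RPKM, of which 8 fell (17.3% of all genes did) and 3 rose (9.38% did). The median log2 ratio of the list was -0.12, and its summed level was 392 RPKM at D0 and 364 at D2. The ligand genes *Wnt5a* and *Wnt9a* fell from 8.16 to 1.94 RPKM and from 1.11 to 0.426. *Wnt10b*, a ligand known to inhibit adipogenesis, was below 1 RPKM on both days, with 0.903 at D0 and 0.0235 at D2. The secreted inhibitors fell as well, *Sfrp1* from 51.7 to 1.95 RPKM and *Sfrp2* from 44.4 to 3.24, and *Sfrp4* went from 144 reads (3.83 RPKM) to 0, at least 42.9-fold lower against a floor of 3 reads in the D2 library. Among receptor genes *Fzd4* rose from 1.43 to 12.7 RPKM, *Fzd1* from 17.1 to 53.3, and *Fzd2* fell from 15.95 to 4.2. *Ctnnb1*, β-catenin, had 150.4 and 146 RPKM, within 2-fold.

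Inflammatory cytokine and chemokine genes were high at D0 and low at D2. Of 23 kept genes, 17 fell, 1 rose, and the median log2 ratio was -3.34. Of 9 chemokine genes, 8 fell. *Ccl5*, a T cell chemokine, fell from 218 to 7.196 RPKM, and *Cxcl1*, a neutrophil chemokine, from 231 to 15.2. *Csf1*, the macrophage growth factor, fell from 457 to 45.8 RPKM and *Il6* from 28.6 to 4.91. *Nos2*, inducible nitric oxide synthase, went from 405 reads (4.75 RPKM) to 0, at least 121-fold lower. *Saa3* and *C3*, acute-phase genes, stayed within 2-fold with 417 and 286 RPKM and 47.9 and 52.1 RPKM. The 1 gene that rose was *Il11* (1.01 to 2.34 RPKM).

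The interferon-stimulated list had the lowest median of the 23 lists. Of 25 kept genes, 24 fell and the median log2 ratio was -5.74. *Isg15*, a ubiquitin-like modifier, had 181 RPKM at D0, 4.43 at D2, and 184 at D7. *Usp18*, which removes ISG15, had 59.6, 0.857, and 67.9 RPKM, and *Irf7*, the factor that amplifies interferon production, 44.3, 0.830, and 69.3. *Ifit1* had 129 RPKM at D7 and *Rsad2*, which encodes viperin, 22.4, 0.180, and 25.8. The decrease at D2 was therefore followed by levels near those of D0. *Stat2* and *Irf9*, subunits of the factor ISGF3, fell from 57.8 to 5.11 RPKM and from 51.7 to 3.95. *Ifit3* and *Ifit3b* are near-identical neighbours, and the split of reads between them is uncertain.

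The D0 level of this programme differed between cultures. The summed RPKM of the 25 interferon-stimulated genes in WT H3.3 cells was 1291 at D0, 60.9 at D2, and back up to 1511 by D7, and in Ctrl shRNA cells from 397 to 131. Across the 6 libraries of the series taken at D0 or 0 h it ranged from 36.9 to 1291, with the WT D0 library the highest. The part of that starting level in the size of the decrease was not tested.

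The interferon-stimulated response element (ISRE) is the known site of ISGF3, and its core GAAANNGAA was searched after the values were seen, on both strands of the same windows. It was found in 12 of 18 promoters of the list, against 6.93% of those of kept genes and 8.57% of all promoters. Because the list was drawn up to hold known interferon-stimulated genes, this share describes its membership and is no result about the decrease. Binding was not measured. Stretches of 4 promoters are shown because these genes fell among the most or, for *Isg15*, hold several overlapping cores, each 5′ to 3′ on the gene's strand, from before the start, with the cores in capitals (RefSeq, GRCm38.p6).
Ifit1: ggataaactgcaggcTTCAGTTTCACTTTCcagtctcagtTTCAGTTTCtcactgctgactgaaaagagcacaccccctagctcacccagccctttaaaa
Ifit3: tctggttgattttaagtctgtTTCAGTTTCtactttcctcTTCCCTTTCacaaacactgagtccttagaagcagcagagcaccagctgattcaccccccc
Isg15: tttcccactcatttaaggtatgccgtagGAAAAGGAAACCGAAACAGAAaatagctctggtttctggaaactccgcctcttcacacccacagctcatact
Cxcl10: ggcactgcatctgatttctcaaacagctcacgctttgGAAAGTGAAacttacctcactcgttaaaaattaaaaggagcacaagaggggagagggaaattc
They lie at chr19:34640765-34640864 (plus strand) for *Ifit1*, chr19:34583387-34583486 (plus strand) for *Ifit3*, chr4:156200825-156200924 (minus strand) for *Isg15*, and chr5:92349040-92349139 (minus strand) for *Cxcl10*. The core nearest to the start began 84 bases before it in *Ifit1*, 102 in *Ifit3*, 66 in *Isg15*, and 213 in *Cxcl10*, counted on the gene's strand. TTC and GAA ends mark cores read on the one or the other strand.

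The same days in Ctrl shRNA cells share no library with the pair and give a second measure of the induction, in cells without the histone vector. In these cells 1354 of 11980 kept genes (11.3%) were over 2-fold up and 1931 (16.1%) over 2-fold down. Of the 1140 genes up in WT H3.3 cells, 625 (54.8%) were also over 2-fold up in Ctrl shRNA cells and 27 were over 2-fold down. Of the 2103 genes down in WT H3.3 cells, 1379 (65.6%) were also over 2-fold down and 52 over 2-fold up. Read from the other side, 570 of the 1354 genes (42.1%) up in Ctrl shRNA cells were also called up in WT H3.3 cells. For genes down it was 1254 of 1931 (64.9%). The 625 and 1379 genes needed no minimum RPKM in Ctrl shRNA cells, so the sets differ. Across 11997 genes the log2 ratios of the 2 pairs had a Pearson r of 0.742 and a Spearman rho of 0.661, where genes are not independent replicates.

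The lipid droplet and actomyosin lists had similar medians in both. The median log2 ratio of the lipid droplet list was 3.47 in WT H3.3 and 3.48 in Ctrl shRNA cells, and that of the actomyosin list -2.38 and -2.53. The matrix list had -1.62 and -1.09. *Fabp4* had 14.8 RPKM at D0 and 1269 at D2 in Ctrl shRNA cells, and *Acta2* 1193 and 7.00. *Cebpa* started from 14.7 RPKM there and reached 78.7, a smaller rise with a log2 ratio of 2.42 against 4.97 in WT H3.3 cells. *Pparg* went from 12.5 to 37.7 RPKM in Ctrl shRNA cells. *Ucp1* was at 0.0308 and 0.0302 RPKM, also near 0.

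Mitochondrial and lipogenic lists had lower medians in the Ctrl shRNA pair. There 10 of the 76 respiratory chain genes were over 2-fold up, against 44 in WT H3.3 cells, with medians of 0.58 and 1.05. For the TCA cycle the counts were 9 against 17 (medians 0.69 and 1.11), for β-oxidation 8 against 16 (0.74 and 1.18), and for lipogenesis and desaturation 4 against 10 (0.39 and 1.10). These differences between the pairs were not tested.

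Other lists also differed in size or sign. Interferon-stimulated genes had a median of -1.83 in Ctrl shRNA cells against -5.74, with 20 of 25 over 2-fold down. The 5 named genes whose ratios differed most between the pairs were *Cxcl10*, *Rsad2*, *Ifit3b*, *Ifit1*, and *Ifit3*, all with smaller decreases in Ctrl shRNA cells. *Cxcl10* had 31.0 and 28.7 RPKM there and *Rsad2* 2.33 and 2.18. Adipokine genes had a median of 2.27 against 0.56, and ribosome biogenesis genes, which were within 2-fold in WT H3.3 cells, had 13 of 28 over 2-fold up. Mitosis and G2/M genes had 26 of 57 over 2-fold down in Ctrl shRNA cells, where *Mki67* went from 48.7 to 18.1 RPKM, compared with 15.1 and 18.3 in WT H3.3 cells. With 1 library per day in each kind of cell, a difference between the pairs has no test, and the vector, the culture, and the library cannot be told apart.

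**Figure D5:**
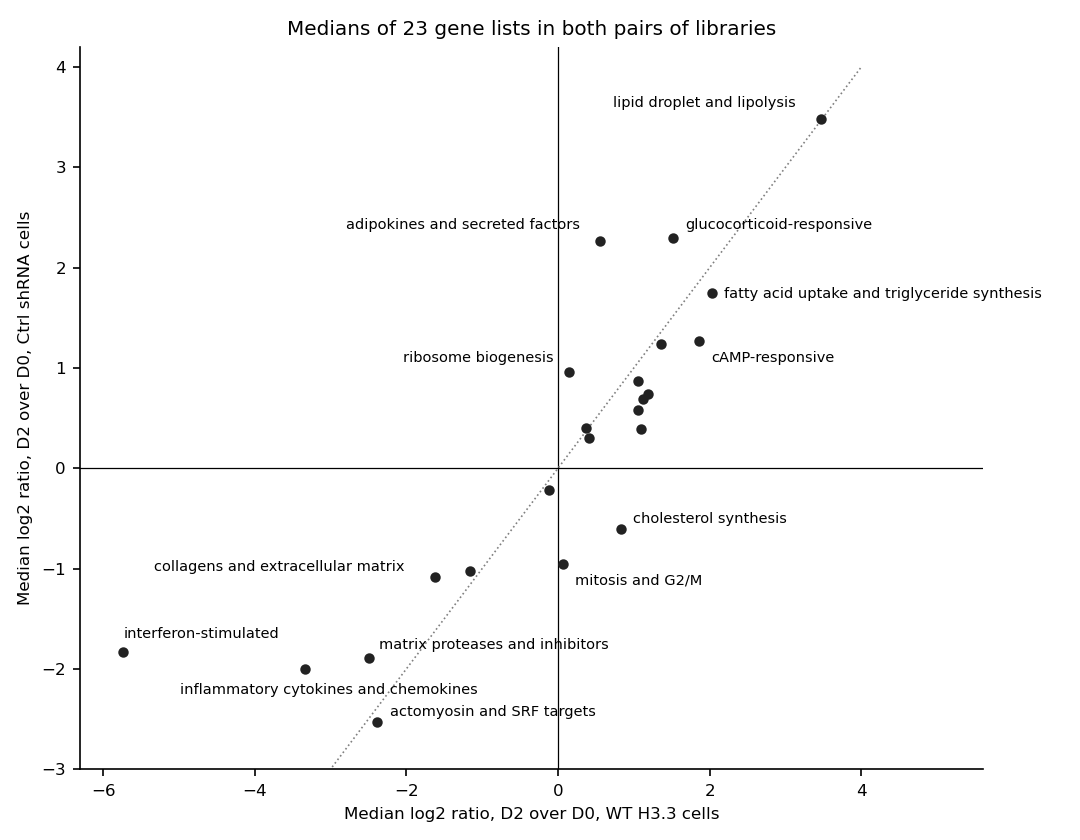
Median log2 ratio of D2 over D0 of each of the 23 lists in WT H3.3 cells (horizontal) and in Ctrl shRNA cells (vertical), 1 point per list, with equal medians on the dotted line. Cholesterol synthesis and mitosis lie in the lower right with medians of 0.83 and 0.062 against -0.61 and -0.95, and interferon-stimulated genes lie far to the left.

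At the edges of the rule, 1.001 RPKM was the lowest value of a kept gene on its higher day (*Oas3*) and 0.9995 the highest of a gene left out (*Mertk*). Between 1 and 2 RPKM on the higher day lay 1106 of the kept genes, and 928 of those left out lay between 0.5 and 1.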

How the data were processed

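RNA of WT H3.3 cells at D0, D2, and D7 and of Ctrl shRNA cells at D0 and D2 was selected for poly(A), copied to cDNA, made into libraries without strand information, and sequenced on an Illumina HiSeq, with 1 library per condition. The authors deposited RPKM values per RefSeq transcript, with no counts, and the submitters' processing notes name CASAVA 1.8.2, SICER, and mm9. The counting program is not given in the sources used here. RefSeq accessions were matched to symbols with the RefSeq table of GRCm38.p6 (28432 of 29082 transcripts), and each gene was represented by its most abundant transcript, by mean RPKM in the 14 RNA-Seq tables. Genes with an RPKM of at least 1 at D0 or D2 entered the counts, and a ratio of over 2-fold was called. Whole reads were recovered from the step size of the RPKM values and gave 95% Clopper-Pearson intervals of the ratio. The depth is given with the results. No test was possible with 1 library per condition.

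Named genes were the 12 in each direction with the largest near limit of that interval and an RPKM of at least 10 on the higher day, the up to 5 members of each list with the largest change in each direction, a set of 20 standard markers, and list members that the field names for the programme. Results of some genes are not reported here. Some list members were named for their role after their values were seen. The members, lists, and rules were chosen with earlier results of these data known. Gene positions are those of GENCODE M1 on NCBIM37, the assembly of mm9, and promoter windows are those of RefSeq on GRCm38.p6, with 9294 windows for kept genes. Alternatives were other minimums, pseudocounts, fold thresholds, centring, and transcript choices, and the steps were tested on simulated data. Analyses used Python 3.11.15, numpy 2.4.6, pandas 2.3.3, scipy 1.17.1, and matplotlib 3.10.9.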

Additional observations from a re-analysis of the deposited data

Results flagged for a closer look

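Some values had opposite signs from D0 to D2 in WT H3.3 and Ctrl shRNA cells, each from 1 library per day, and these differences were not tested. The median log2 ratio of cholesterol synthesis genes was 0.83 in WT H3.3 cells and -0.61 in Ctrl shRNA cells. For mitosis and G2/M genes it was 0.062 and -0.95. *Adamts4*, an aggrecanase gene, had log2 ratios of 1.28 and -1.41, from 3.03 to 7.34 RPKM and from 8.90 to 3.35 RPKM. *Snai1*, a repressor of epithelial genes, had 1.17 and -1.37, with 17.4 and 39.1 RPKM in WT H3.3 cells. *Il11*, a cytokine gene, had 1.21 and -1.23, with 1.01 and 2.34 RPKM in WT H3.3 cells.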

How the results depend on the processing

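The number of induced genes was 1140 and became 2392 with any RPKM above 0, 2253 at 1.5-fold, and 338 at 4-fold, and under the other alternatives it stayed between 833 and 1156. The number of repressed genes was 2103 and became 4431 with any RPKM above 0, 1295 with an RPKM of at least 5, and 977 at 4-fold, and otherwise it stayed between 1587 and 3128. List members up-regulated over 2-fold numbered 196 and became 68 at 4-fold, and those down-regulated numbered 141, with all alternatives within 1.5 times of that. Counting protein-coding genes only, an alternative chosen after seeing the data, gave 1007 induced and 1909 repressed genes. Of 750 log2 ratios of 150 named genes under 5 alternatives, 85 moved beyond the counting interval. Of these, 80 moved with a pseudocount of 1, which brought 8 called genes within 2-fold. Signs were checked only for genes past 2-fold, and none changed. Pseudocounts and the small centring shift could not have changed them, so only the transcript choices bore on this. The larger direction turned in 0 of 253 pairs of a list and an alternative and was tied in 3, for mitosis genes at 4-fold and with a pseudocount of 1 and for the respiratory chain at 4-fold. No paired analysis was possible because each condition had 1 library. At this depth 3 reads in 1 kb were 0.140 RPKM at D0 and 0.157 at D2, so genes near 1 RPKM rest on few reads, and no library shows the spread between cultures.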

Other observations

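Several of the strongest changes lay outside the gene lists, and the genes below were chosen after their values were seen. Among the induced were *Ucp2*, a mitochondrial carrier related to *Ucp1*, with 1.403 RPKM at D0 and 72.8 at D2, and *Car5b*, a mitochondrial carbonic anhydrase, with 1.76 and 93.9. *Sort1* and *Trarg1*, both known in the traffic of GLUT4 vesicles, rose from 1.05 to 35.5 RPKM and from 1.43 to 47.2, on days when the GLUT4 gene itself was below 1 RPKM. *Igfbp5*, an insulin-like growth factor binding protein, went from 0.0958 to 13.7 RPKM and was at 0.667 at D7. *Prg4*, which encodes lubricin, rose from 3.47 to 111 RPKM.

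Among the repressed were secreted and surface proteins of mesenchymal cells. *Grem1*, an antagonist of BMP signals, fell from 255 to 4.47 RPKM, *Ogn*, a small proteoglycan, from 45.8 to 0.433, and *Lrrc32*, a docking receptor of latent TGFβ, from 241 to 5.73. *Il1rl1*, the receptor of interleukin-33, fell from 87.2 to 1.87 RPKM, and *S100a4*, often used as a fibroblast marker, from 362 to 9.02. Other genes of the CCN family fell with *Ccn2*, *Ccn3* from 35.4 to 0.421 RPKM, *Ccn5* from 50.9 to 0.619, and *Ccn1* from 119.6 to 14.2. The interferon-inducible GTPase genes outside the list fell as well, *Iigp1* from 23.9 to 0.3205 RPKM, *Irgm1* from 76.5 to 2.26, and *Igtp* from 27.3 to 0.776. *Zbp1*, a sensor of viral nucleic acids, fell from 19.5 to 0.0670 RPKM and was at 18.5 at D7. In Ctrl shRNA cells the log2 ratios of *Zbp1* and *Iigp1* were -1.59 and -1.84, against -8.19 and -6.22 in WT H3.3 cells, and those of *Grem1* and *Il1rl1* were -5.62 and -6.06 against -5.84 and -5.55.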
